A study of Mus musculus with 6 samples.

Results

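Genes that mark white adipocytes were followed in RNA sequencing of mouse atria: Plin1, Cidec, Adipoq, Lep, Retn, Cfd, Fabp4 and Car3. They were picked by gene name as textbook adipocyte markers, when earlier results of these data were already known, and 8 of the 43432 genes in the deposited table carried these names, with 1 row each. The question put to them was how the spread among samples on one diet compares with the difference between the diets.

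Atrial tissue came from wild-type C57/Bl6J mice that received a high fat diet (HFD, the obese group, 3 samples) or control chow (the lean group, 3 samples) for 10 weeks from 6 weeks of age, and right and left atrial tissue was taken for RNA. The samples are called HFD 1 to 3 and control 1 to 3, and the sources used here do not say whether each came from 1 mouse, so the p-values measure the spread between these samples only. The labels disagree on the diet, since the treatment field of every sample names the diet opposite to the one in its title and in its column name. The titles were followed, and every direction below would turn round under the treatment field. Between 15874251 and 28971508 reads were assigned to genes in each sample, with control 2 the deepest, and 19.5% to 30.7% of them were mitochondrial. Of the tissue markers checked, the atrial genes were abundant (Nppa, the atrial natriuretic peptide, 171702 to 333975 normalized read counts), and summed markers of thymus, lung epithelium and liver reached at most 5.60 normalized read counts in any sample. Other lists were present: ventricular myocyte markers summed to 6882 to 9866 in HFD and 7919 to 17399 in control samples, the most in control 2. Mesothelial markers summed to 1428 to 2255 and red cell markers to 921 to 1506 over all samples.

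White adipocytes store triglyceride in a single large lipid droplet, release fatty acids from it on demand and secrete hormones into the blood. Fat cells lie on the surface of the heart and around the atria, and so can be carried into a dissected atrium. Plin1 (perilipin 1) coats the droplet and gates lipolysis, and Cidec (also called FSP27) fuses small droplets into a large one. Adipoq (adiponectin), Lep (leptin), Retn (resistin) and Cfd (adipsin, complement factor D, a protease of the alternative complement pathway) are secreted. Fabp4 (also called aP2) carries fatty acids inside adipocytes, and is known also from capillary endothelium and macrophages. Car3 (carbonic anhydrase 3) is abundant in adipocytes and slow skeletal muscle. In bulk tissue fewer adipocytes and less RNA per adipocyte cannot be told apart.

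All are protein-coding genes of GRCm38, named here with their Ensembl identifiers and the spans given in the table. The droplet genes were Plin1 (ENSMUSG00000030546) at chr7:79721164-79732776 and Cidec (ENSMUSG00000030278) at chr6:113424634-113435760, both on the minus strand. The secreted proteins were Adipoq (ENSMUSG00000022878) at chr16:23146536-23158028, Lep (ENSMUSG00000059201) at chr6:29060220-29073877, Retn (ENSMUSG00000012705) at chr8:3655770-3660110 and Cfd (ENSMUSG00000061780) at chr10:79890853-79892656, all on the plus strand. On chromosome 3 lay Fabp4 (ENSMUSG00000062515) at chr3:10204088-10208576, minus strand, and Car3 (ENSMUSG00000027559) at chr3:14863512-14872523, plus strand.

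The promoters of the members were searched for letters bound by adipocyte regulators, and for the TATA, CCAAT and GC boxes of promoters in general. Shown are 4 stretches that hold a match. Of the members shown, Plin1, Cidec and Adipoq shared an order of samples and Lep did not keep it. The matches do not separate them, since Lep, Plin1 and Cidec held the C/EBP core named below and Adipoq did not. Whether the letters relate to the order of samples was not tested. RefSeq windows of GRCm38.p6, from 250 bases before to 50 bases from a transcription start, were found for 6 of the 8 members, with 2 windows for Cidec. Each stretch below is 120 bases long and is written 5′ to 3′ on the gene's own strand. Capitals mark TTGCNNAA, a core recognised by C/EBP factors, in Lep, Plin1 and Cidec, and the CCAAT box or its reverse complement in Adipoq.
Lep, chr6:29060121-29060240, plus strand: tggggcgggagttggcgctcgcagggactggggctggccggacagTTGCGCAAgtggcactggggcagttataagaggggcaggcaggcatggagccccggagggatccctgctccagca
Plin1, chr7:79732757-79732876, minus strand: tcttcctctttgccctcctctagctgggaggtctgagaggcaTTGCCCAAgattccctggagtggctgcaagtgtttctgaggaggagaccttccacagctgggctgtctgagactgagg
Cidec, chr6:113434865-113434984, minus strand: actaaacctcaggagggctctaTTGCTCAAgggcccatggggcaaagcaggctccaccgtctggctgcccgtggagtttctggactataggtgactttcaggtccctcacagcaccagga
Adipoq, chr16:23146436-23146555, plus strand: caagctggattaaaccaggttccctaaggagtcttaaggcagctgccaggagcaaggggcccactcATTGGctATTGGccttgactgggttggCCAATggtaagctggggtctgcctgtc

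TTGCNNAA, searched on both strands, was present in windows of 3 of the 6 members, Lep, Plin1 and Cidec, and in 10.8% of all 32851 windows of this length. In Lep it lay 48 to 55 bases before the start, ahead of a TATAAG 26 to 31 bases before it. Plin1 held one copy 51 to 58 bases and another, outside the printed stretch, 180 to 187 bases before the start. The Cidec copy lay 191 to 198 bases before the second of its starts, inside the gene. CCAAT was found only in the Adipoq window among the members, in 3 copies within 34 bases of the start, and in 37.4% of all windows. AGGTCA, the core of the sites of nuclear receptors such as PPARG, present in 16.3% of all windows, was in none of the member windows. These matches describe the letters only, and no binding was measured.

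All 8 members were expressed above the filter on low values (a mean of at least 10 normalized read counts over the 6 samples). Per kilobase of their longest coding transcript, which allows levels of different genes to be compared, Fabp4 led with a mean of 7503 normalized read counts per kb in HFD and 4221 in control samples. Cfd (1208 and 823) and Car3 (854 and 709) followed, and their ranges over the samples overlapped. Cidec (228 and 162), Adipoq (219 and 142), Plin1 (103 and 70.8) and Retn (63.2 and 61.2) came next. Lep was the lowest, with 3.92 in HFD and 8.22 in control samples.

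**Figure D1:**
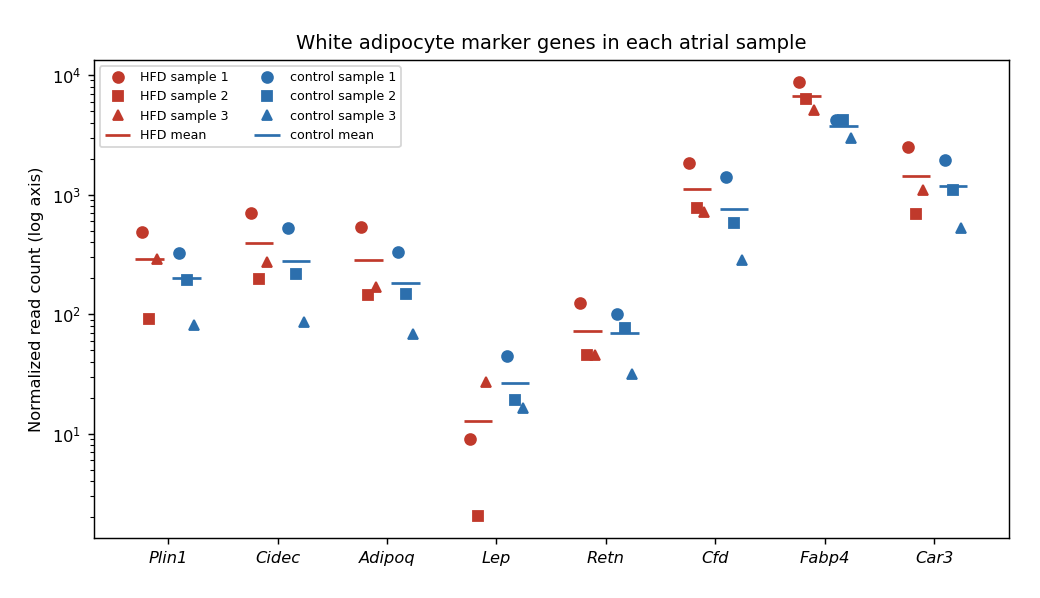
Normalized read count (vertical log axis) of the 8 white adipocyte marker genes in the 3 HFD and 3 control atrial samples. Points are samples and horizontal bars the mean of a diet; Fabp4 alone has every HFD sample (5075 to 8820) above every control sample (2949 to 4228).

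The droplet proteins varied several-fold within each diet. Plin1 was 491, 91.8 and 290 normalized read counts in HFD 1, 2 and 3, and 326, 192 and 80.9 in control 1, 2 and 3. The highest and lowest HFD samples thus differed 5.35-fold and the highest and lowest control samples 4.03-fold, and the groups overlapped. The difference between the diets was 0.45 on the log2 scale (SE 0.59, 95% interval -0.85 to 1.76, adjusted p = 0.815 from limma with Benjamini-Hochberg adjustment over 15275 genes). Cidec was 708, 197 and 271 normalized read counts in the HFD and 530, 218 and 86.3 in the control samples. The same samples were high and low as for Plin1, and the Cidec difference of 0.64 (SE 0.59) had an adjusted p of 0.727 in the same fit.

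Of the secreted proteins, adiponectin had the same order of samples again. Adipoq was 533, 146 and 170 normalized read counts in HFD 1 to 3 and 334, 149 and 67.8 in control 1 to 3, with a log2 difference of 0.66 (SE 0.57, 95% interval -0.60 to 1.91, limma adjusted p = 0.705). HFD 1 and control 1 held the most, and HFD 2, HFD 3 and control 2 lay within a narrow range of each other. Cfd was 1851, 775 and 714 in the HFD and 1412, 580 and 285 in the control samples, again with HFD 1 and control 1 on top and control 3 at the bottom (log2 difference 0.71, SE 0.51, limma adjusted p = 0.630). Retn was 125, 45.9 and 45.4 in the HFD and 101, 76.7 and 31.7 in the control samples. Its means were nearly equal, 72.0 ± 45.6 (SD, n = 3) and 69.7 ± 35.1 (SD, n = 3), and its log2 difference was 0.03 (SE 0.48, limma adjusted p = 0.992).

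Leptin, the hormone by which fat reports its stores to the brain, went the other way in sign and was measured on few reads. Lep was covered by 9, 2 and 24 reads in HFD 1 to 3 and by 40, 28 and 15 reads in control 1 to 3, or 9.04, 2.04 and 27.3 against 44.8, 19.2 and 16.4 normalized read counts. The HFD 2 value lies under the limit of 3.06 that 3 reads set in that library. HFD 3 was above 2 of the control samples, so the groups overlapped. The log2 difference was -1.41 (SE 0.79, 95% interval -3.16 to 0.35, limma adjusted p = 0.526), and it depended on the pseudocount of 1 added before the logarithm, being -0.77 with a pseudocount of 10. Counting error alone corresponds to an SD of 0.52 on this scale for Lep, against 0.02 to 0.20 for the other 7 members.

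Fabp4, the fatty acid carrier, stood apart from the rest. It was 8820, 6273 and 5075 normalized read counts in HFD 1 to 3 and 4228, 4169 and 2949 in control 1 to 3, so that no HFD sample fell within the control range. The means were 6723 ± 1913 (SD, n = 3) and 3782 ± 722 (SD, n = 3), a 1.75-fold difference (95% interval 1.28 to 2.40) on the log2(value + 1) scale. Its unadjusted p of 0.00244 became 0.108 after adjustment over all genes in limma, and the two-sided exact permutation test gave p = 0.1, the smallest that 3 against 3 samples allow. The adjusted p was 0.123 with edgeR's quasi-likelihood test and 0.00213 with DESeq2, both on the recovered reads, where 0.57% and 3.06% of all genes tested passed, so Fabp4 passed the threshold of 0.05 in one of these tests and not in the others. Without HFD 3 it passed in limma (adjusted p = 0.0244), and without any other single sample it did not (0.214 to 0.293).

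Fabp4 is also known from other cells, and the endothelial and macrophage markers listed here gave no gene past the threshold. Genes outside these lists did pass, among them Cd163 and Siglec1, known from macrophages, and Aplnr, known from endothelium. All 7 endothelial markers, among them Pecam1 and Cdh5, had a positive log2 difference (median 0.18, none past the threshold). In limma 3 of the 7 were higher at an unadjusted p under 0.05, beside 6.66% of all genes tested. The summed level of the 7 was 14701 to 16185 normalized read counts in HFD and 11974 to 12866 in control samples. The 6 macrophage markers summed to 9370 to 11049 in HFD and 7070 to 9234 in control samples, with 5 positive differences, a median of 0.35 and none past the threshold. Of these 6, 3 were higher at an unadjusted p under 0.05 in limma. The 5 atrial myocyte markers summed to 285064 and 285797 in HFD 1 and HFD 2, the samples with the most Fabp4, and to between 440112 and 518575 in the other 4 samples. The part of these cells in the Fabp4 values was not tested.

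Car3 followed the droplet proteins and not Fabp4. It was 2516, 687 and 1096 normalized read counts in the HFD and 1949, 1096 and 526 in the control samples. HFD 1 and control 1 were the highest and the groups overlapped throughout, with a log2 difference of 0.25 (SE 0.49, limma adjusted p = 0.887). The 9 skeletal muscle markers summed to 4030 to 7435 normalized read counts in HFD and 4777 to 5397 in control samples, most of it from Myl1 (3936 to 7247 over all samples), and 0 of the 5 tested passed the threshold. Of these 9 the fast myosins Myh1, Myh2 and Myh4 reached no more than 8.21. The list holds genes of fast fibres, so it cannot show slow muscle. The part of muscle in the Car3 values was not tested.

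In all, 0 of the 8 members passed an adjusted p of 0.05 in limma, where 0.746% of all genes tested did (114 of 15275, with 0.484% higher and 0.262% lower in HFD). Of these 8 none passed with edgeR and Fabp4 alone with DESeq2. At an unadjusted p under 0.05 there was 1 of 8, Fabp4, beside 12.2% of all genes (6.66% higher in HFD), and 1 of 8 had groups that did not overlap, beside 18.0% of all genes (8.86% with HFD above control). Of the members, 7 had a positive log2 difference, and their median was 0.55 against 0.00 for all genes tested. By the sign alone Plin1, Cidec, Retn and Car3 were not stable, since leaving out 1 sample turned each of them negative: without control 3 the values were -0.084, -0.018, -0.45 and -0.24, and without HFD 1 those of Plin1, Retn and Car3 were -0.073, -0.45 and -0.26.

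**Figure D2:**
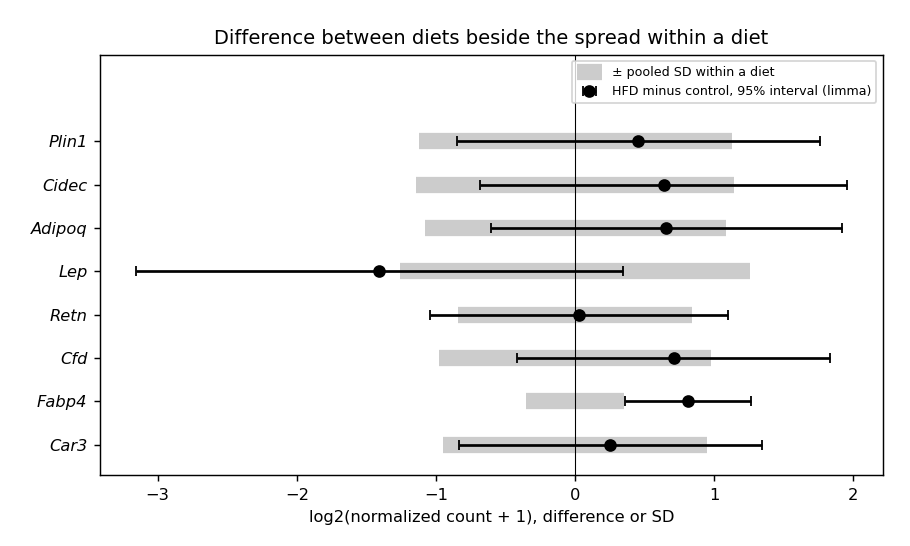
Difference of the mean log2(normalized count + 1), HFD minus control, for each member (points with the 95% interval from limma), over grey bars of plus and minus the pooled SD within a diet (n = 3 per diet). The grey bar reaches past the point in 6 of the 8 members; Lep (-1.41 beside an SD of 1.26) and Fabp4 (0.81 beside 0.35) are the others.

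The spread within a diet was wide for every member except Fabp4. The pooled SD of the log2 values was 1.12 for Plin1, 1.14 for Cidec, 1.08 for Adipoq, 0.98 for Cfd, 0.95 for Car3 and 0.84 for Retn, against a median of 0.22 over all genes tested. These spreads were larger than those of 94.8% (Retn) to 97.5% (Cidec) of the genes tested. For Lep the SD of 1.26 exceeded that of 98.0% of genes, in a range of low counts where spread is wide in general: genes with a mean of 10 to 50 had a median SD of 0.56. The SD of Fabp4, 0.35, exceeded that of 72.7%. The pooled SD was larger than the absolute difference between the diets in 6 of 8 members and in 60.4% of all genes tested.

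**Figure D3:**
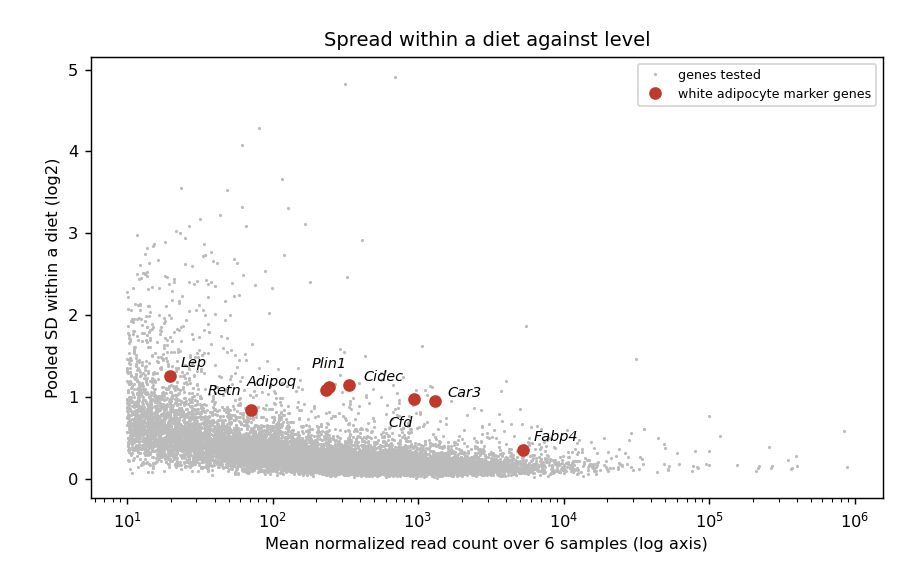
Pooled SD of log2 values within a diet (vertical axis) against the mean normalized read count over the 6 samples (log axis), for all 15275 genes tested (grey) and the 8 members (red). Members other than Lep and Fabp4 lie between 0.84 and 1.14, wider than at least 94.8% of the genes tested.

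Plin1, Cidec, Adipoq and Car3 shared one order of samples that crossed the diets, and the other 4 each had an order of their own. The shared order ran HFD 1, control 1, HFD 3, control 2, HFD 2, control 3 from highest to lowest. Its middle rested in part on near ties: Car3 was 1096 in both HFD 3 and control 2, and Adipoq was 149 in control 2 and 146 in HFD 2. HFD 1 was the highest sample for 7 members and control 3 the lowest for the same 7, the exception being Lep, which was highest in control 1 and lowest in HFD 2. As the mean deviation of the 8 members from their own means, HFD 1 stood at 0.97 and control 1 at 0.76 on the log2 scale, HFD 3 at 0.08, control 2 at -0.10, HFD 2 at -0.64 and control 3 at -1.07. Sample 1 was the highest of its diet on both sides for 7 members, and for 12.8% of all genes tested. The shared number does not pair the samples in the labels.

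Expressed per Adipoq, 6 of the other 7 members had a narrower range over the samples than their own level did, the exception being Fabp4. Cidec per Adipoq lay between 1.27 and 1.59 in the 6 samples, while Adipoq itself ran from 67.8 to 533 normalized read counts. Cfd per Adipoq lay between 3.47 and 5.32, and Car3 per Adipoq between 4.71 and 7.76. Fabp4 per Adipoq ran from 12.7 in control 1 to 43.5 in control 3, a 3.43-fold range against 2.99-fold for its level. Lep per Adipoq was 0.0170, 0.0140 and 0.160 in HFD 1 to 3 and 0.134, 0.129 and 0.242 in control 1 to 3, low in HFD 1 and HFD 2 only, with HFD 3 inside the control range.

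Each member was also taken relative to the mean deviation of the other 7 members in the same sample. The pooled SD within a diet was then 0.14 for Car3, 0.36 for Adipoq and Retn, 0.37 for Cidec, 0.40 for Cfd and 0.42 for Plin1, while that of Lep went from 1.26 to 1.18 and that of Fabp4 from 0.35 up to 0.73. On this relative scale no member had groups that did not overlap. The difference between the diets on it was 0.21 for Plin1, 0.42 for Cidec, 0.44 for Adipoq, 0.51 for Cfd, 0.62 for Fabp4, -0.02 for Car3, -0.27 for Retn and -1.91 for Lep. These relative values describe the members against one another and were not tested.

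Among all genes tested, 10 others were nearest to the mean pattern of the members, by the root mean square difference of log2 deviations over the 6 samples. They were Cma1 (0.20), Cdo1 (0.21), Sgsm1 (0.21), Uchl1 (0.22), Sncg (0.24), Gm7497 (0.25), Abhd11os (0.25), Ret (0.25), 4933428G20Rik (0.29) and Gm12929 (0.30), where the median of all genes was 0.76. That mean holds each member itself, so the members were compared with the mean of the other 7 members instead. On this measure Car3 came to 0.12, Retn to 0.33, Plin1 to 0.36, Cidec and Adipoq to 0.37, Cfd to 0.41, Fabp4 to 0.68 and Lep to 1.36. Cdo1, cysteine dioxygenase, was 570, 214 and 317 normalized read counts in the HFD and 365, 236 and 117 in the control samples. Cma1 is a chymase of mast cells, and Uchl1 and Ret are best known from neurons. The remaining nearest genes, Cdo1 and Sncg among them, were not assigned to a cell type here, so these 3 do not describe the 10 as a set. None of the 10 passed the threshold between the diets.

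**Figure D4:**
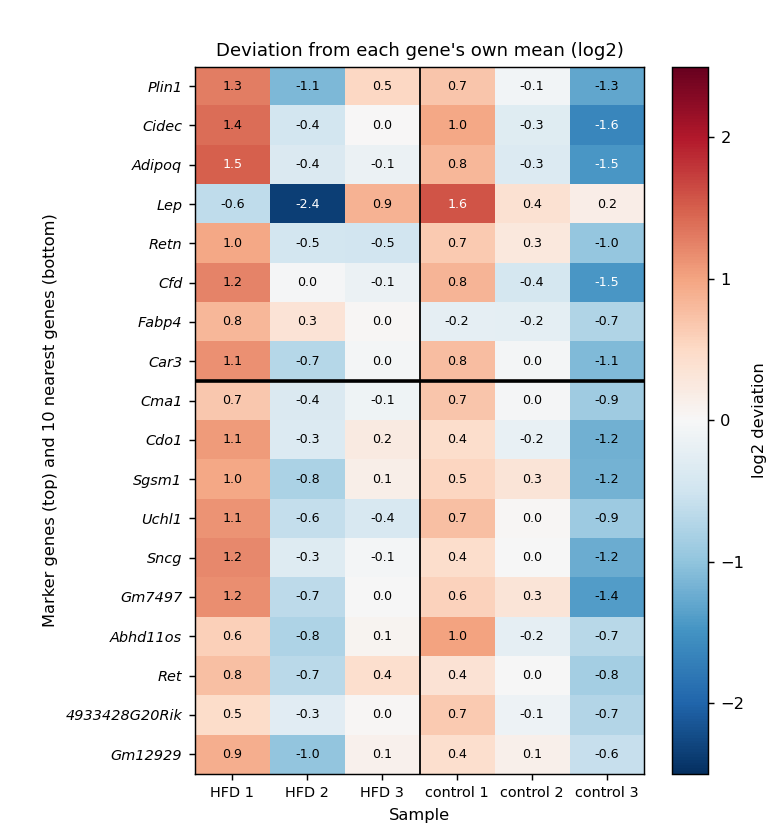
Deviation of log2(normalized count + 1) from each gene's own mean over the 6 samples, for the 8 members (above the line) and the 10 genes nearest to their mean pattern (below it), red above and blue below the mean. HFD 1 and control 1 are red and control 3 blue for most genes, Lep and Fabp4 being the members that depart from this.

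Genes that act with the members in the adipocyte were described by fixed lists, none of which shares a gene with the members. The cells that gave these reads were not determined, so a change in a list gene is not assigned to adipocytes. Lpl, for one, ran from 35198 to 66199 normalized read counts, where Adipoq ran from 67.8 to 533. Of 14 genes of lipid storage and lipolysis, 2 rose, 0 fell and the median log2 difference was 0.49. Of all genes tested 0.484% rose and 0.262% fell. Lipe, the hormone-sensitive lipase that works on perilipin-coated droplets, was 3163, 2219 and 1862 normalized read counts in the HFD and 1091, 725 and 643 in the control samples (log2 difference 1.56, SE 0.22, limma adjusted p = 0.0171). Mgll, the monoglyceride lipase, rose by 0.60 (limma adjusted p = 0.0429). The Lipe call was lost on leaving out HFD 2, control 2 or control 3, and that of Mgll with edgeR, quantile normalization, the replicate block or without any one sample other than HFD 3. Pnpla2, the lipase that starts triglyceride breakdown, had a difference of 0.58 that did not pass (limma adjusted p = 0.328), as did Lpl (0.32) and Cd36 (0.72), the most abundant genes of the list.

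Of 6 relatives of Plin1 and Cidec, 3 rose and 0 fell, with a median of 0.80. Of all genes tested 0.484% rose and 0.262% fell. Plin2, the perilipin of most cell types, was 1089, 804 and 898 in the HFD and 576, 539 and 409 in the control samples (0.88, adjusted p = 0.0458 in limma). Plin5, the perilipin of oxidative muscle, rose by 1.03 (limma adjusted p = 0.0485), and Cidea, the relative of Cidec known from brown fat, by 1.21 (adjusted p = 0.0310). Each of the 3 had every HFD sample above every control sample, as did 8.86% of all genes tested. The 3 are named because they passed the threshold in these same samples, so this adds nothing to the calls. The groups overlapped for Plin1 and Cidec. Whether the diet effect differs between these genes and Plin1 or Cidec was not tested. All 3 calls depend on single samples: each was lost on leaving out HFD 1, control 1, control 2 or control 3, and those of Plin2 and Plin5 also without HFD 2, with edgeR and with quantile normalization.

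The 8 adipocyte regulators gave 0 calls and a median of 0.24. Cebpb and Cebpd, the C/EBP factors that act early in fat cell formation, had differences of 1.16 (limma adjusted p = 0.0657) and 0.95 (adjusted p = 0.0550) without overlap of the groups, and Cebpa and Pparg, the factors of the mature fat cell, 0.34 and 0.56 (adjusted p 0.671 and 0.373) with overlap. Cebpa was 487, 285 and 476 normalized read counts in the HFD and 449, 326 and 220 in the control samples, so HFD 2 and control 3 were low, as they were for Plin1. The 9 lipogenesis genes had a median of -0.52 with 0 calls. In limma 5 were lower at an unadjusted p under 0.05, among them Fasn (-1.04) and Scd1 (-1.01), where 12.2% of all genes tested reached it in either direction.

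Of 12 further surface and secreted adipocyte genes 0 passed the threshold (median 0.17). In 8 of the 12 sample 1 was the highest of each diet, as it was for 12.8% of all genes tested, though not in the 3 most abundant, Slc2a4, Npr3 and Nampt. Among the 8, Lgals12, a galectin of the lipid droplet, was 70.3, 12.2 and 34.1 normalized read counts in the HFD and 39.2, 19.8 and 15.3 in the control samples. Other lists varied in how many genes had sample 1 highest in each diet. The tally was 5 of 14 for lipid storage, 4 of 6 for relatives of Plin1 and Cidec and 2 of 8 for regulators. It was 1 of 5 for brown adipocyte, 0 of 9 for lipogenesis and 4 of 6 for macrophage genes tested. The 6 receptors for adiponectin, leptin and resistin gave 0 calls with a median of 0.07. Adipor1 (-0.01) and Adipor2 (0.43, adjusted p = 0.124 in limma) serve adiponectin, and Lepr (-0.03) serves leptin. The other 4 genes of the alternative complement pathway, to which Cfd belongs, all had a positive sign (median 0.51, 0 calls), with C3 at 0.51 and Cfb at 0.56. The other families of the members gave 0 calls as well: 9 of 14 carbonic anhydrases were tested (median 0.10), 3 of 6 fatty acid binding proteins (median 0.03) and 1 of 3 resistin-like genes (-0.32).

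Of 6 brown adipocyte markers, 5 were tested and 2 rose, Cidea and Ucp1, the uncoupling protein of brown fat. Of all genes tested 0.484% rose. Only 3 of the 5 had a positive log2 difference, so the list did not rise as a whole. Its 6 genes summed to 5824 to 7952 normalized read counts in HFD and 6324 to 8514 in control samples. Ucp1 was 706, 173 and 745 normalized read counts in the HFD and 86.2, 5.48 and 15.3 in the control samples, a log2 difference of 4.43 (SE 0.83, limma adjusted p = 0.0446) that did not pass with edgeR or without any one sample other than control 1. HFD 2, low for Plin1, Adipoq and Lep, was also the HFD sample with the least Ucp1, and control 1 had the most Ucp1, Plin1, Adipoq and Lep of the control samples. The remaining samples did not keep the order of Plin1 and Adipoq. Ucp1 was higher in HFD 3 than in HFD 1 and higher in control 3 than in control 2, the reverse of both genes. The first was nearly a tie (745 against 706), and the second rested on low counts (15.3 against 5.48). The 6 markers of stromal fat progenitors held 1 call, Ly6a (1.03, limma adjusted p = 0.0252, lost without any one sample other than HFD 3), with a median of 0.12 over 5 tested.

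**Figure D5:**
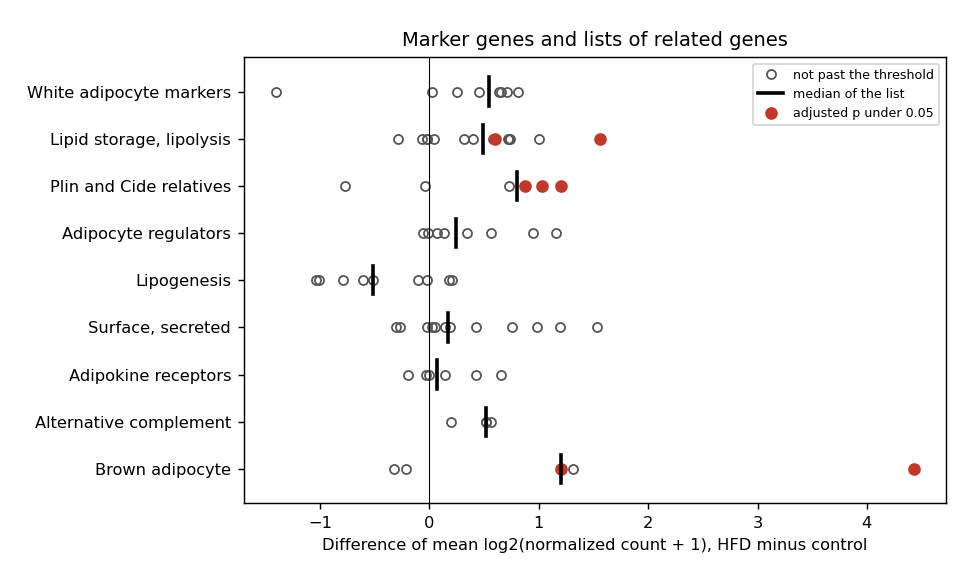
Difference of the mean log2(normalized count + 1), HFD minus control, for each gene tested in the member list and 8 lists of related genes; filled points passed an adjusted p of 0.05, and bars mark list medians. The marker genes hold no filled point, while Lipe, Mgll, Plin2, Plin5, Cidea and Ucp1 are filled.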

How the data were processed

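Per the study's methods, single-end 50 bp reads from directional libraries were aligned to GRCm38 with STAR, and uniquely mapped reads were assigned to Ensembl 79 genes with Salmon; whether the counting used strand is not given in the sources used here. The deposited values are a signal per gene, read counts that the authors divided by 1 DESeq2 size factor per sample. In every sample 100% of the values were whole multiples of 1 read (tolerance 0.001), so the reads were recovered for the count tests. Gene names in the table are in capitals and were matched ignoring case. The authors' comparison columns (fold changes, p-values and a ranking metric) were not used.

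Genes with a mean of at least 10 were tested with limma 3.58.1 (trend, R 4.3.3) on log2(value + 1), all 6 samples, no covariates. P-values were adjusted after Benjamini and Hochberg and called under 0.05. edgeR 4.0.16 and DESeq2 1.42.0 on the recovered reads, other filters, pseudocounts and scalings, a replicate block and each sample left out were alternatives. The code was tested on simulated data. Intervals and read limits for Lep cover these samples and counting error only. No other gene of the table overlaps the span of a member. Named are all members, list genes past the threshold or among the 3 most abundant of a list, and the 10 genes nearest to the members. Cebpa, Cebpd, Pparg, Fasn, Lgals12, Lepr, Cfb, Cd163, Siglec1, Aplnr and the skeletal myosins were named after their values were seen. The members and lists were chosen with earlier results of these data known. Among the other tissue lists, the numbers past the threshold were 0 of 4 ventricular, 0 of 5 skeletal muscle, 0 of 6 mesothelial and 0 of 3 red cell genes tested.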

Additional observations from a re-analysis of the deposited data

How the results depend on the processing

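Over all genes, 114 passed the threshold; the count stayed between 87 and 157 under the other filters, pseudocounts, scalings, edgeR and the replicate block, and was 467 with DESeq2, 69 with a log2 difference over 1 in size required as well, and 0 with limma without a variance trend, where 1717 genes had an unadjusted p under 0.05. Leaving out 1 sample gave 14 (without control 2) to 318 (without HFD 3). The causes were not tested. Of the members 0 passed, except 1, Fabp4, with DESeq2, with the replicate block and without HFD 3, so that leaving out 1 sample gave 0 to 1.

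The log2 difference of Plin1 ran from -0.084 to 1.13 on leaving out 1 sample, that of Cidec from -0.018 to 1.28, that of Retn from -0.45 to 0.37 and that of Car3 from -0.26 to 0.70. Plin1 and Car3 were negative without HFD 1 (-0.073 and -0.26) and without control 3 (-0.084 and -0.24), Retn likewise (-0.45 and -0.45), and Cidec without control 3 (-0.018). Adipoq, Lep, Cfd and Fabp4 kept their sign in every alternative run, but leaving out 1 sample moved Adipoq between 0.071 (without HFD 1) and 1.23 (without control 1), Cfd between 0.16 and 1.31, Lep between -2.19 (without HFD 3) and -0.58 (without HFD 2) and Fabp4 between 0.60 and 0.99. Lep ran from -1.58 to -0.77 over the alternatives that kept all samples, and was not tested where at least 10 in every sample was required. With limma without a variance trend none of Lipe, Mgll, Plin2, Plin5, Cidea, Ucp1 and Ly6a passed (adjusted p 0.177 to 0.235).

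The labels do not pair the samples by replicate number. Over all genes tested the correlations of same-numbered samples were 0.12, -0.03 and -0.00, and not every sample correlated best with its own number. With 3 samples a diet these correlations cannot settle whether same-numbered samples were handled together. With the replicate block 157 genes passed (1.03%), Fabp4 among them (adjusted p = 0.0263 in limma), and Adipoq, Cidec and Cfd had an unadjusted p under 0.05. The precision is limited by 3 samples a diet, and for Lep by its 2 to 40 reads a sample.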

Other observations

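Because neuronal and mast cell genes stood among those nearest to the adipocyte markers, 13 genes of cardiac neurons and 5 genes of mast cells were looked up. Both lists were chosen after values had been seen, and no test was made. Of the 13 neuronal genes, 10 had sample 1 as the highest within each diet, beside 12.8% of all genes tested and 7 of the 8 adipocyte markers. Prph, the peripheral neuron filament peripherin, was 282, 18.4 and 18.2 normalized read counts in HFD 1 to 3 and 148, 84.2 and 13.1 in control 1 to 3. Slc18a3, the vesicular acetylcholine transporter, was 96.4, 13.3 and 4.54 in the HFD and 66.1, 29.4 and 8.74 in the control samples. Both were high in HFD 1, control 1 and control 2. Dbh, the enzyme that makes noradrenaline, was instead lowest in HFD 1 (57.3) and highest in control 3 (272). The neuronal genes summed to 1590, 329 and 377 in the HFD and 1098, 672 and 489 in the control samples. The mast cell genes, of which 4 of 5 had sample 1 as the highest within each diet, summed to 345, 187 and 290 and to 321, 261 and 238. The relation between these genes and the adipocyte markers was not tested.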
